A study of Homo sapiens with 12 samples.

Results

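Homologous recombination repairs double-strand breaks by copying an intact sister DNA molecule, and the Fanconi anemia pathway removes crosslinks that join the strands of DNA. The mRNA of 41 genes of these pathways was followed in 22Rv1 cells after depletion of CENPA, the histone H3 variant that marks centromeres. The genes were picked by symbol, and all 41 were found among the 14828 genes of the expression table. They were placed in 9 groups by the role of the protein, from the BRCA complex to the nucleases that cut joint molecules.

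In recombination, a nuclease complex first trims the broken end to a single strand, which BRCA2 and its partners prepare for pairing. The strand then invades the matching sequence with the help of further proteins, and the joined molecules are finally taken apart by helicases or cut by nucleases. In the Fanconi pathway, a core complex of FANC proteins attaches ubiquitin to FANCD2 and FANCI at a stalled fork, which opens the way for incision of the crosslink and for repair by recombination. Recombination mostly uses the sister chromatid, and many of these genes are known to be expressed most strongly in cells that replicate their DNA.

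22Rv1 is a human prostate carcinoma cell line. It had been transduced with a lentiviral vector that makes an shRNA when doxycycline is given, and selected with puromycin. The shRNA was nontargeting in the controls (shNT) and directed against CENPA in the other groups (shCENPA1 or shCENPA2), and all 3 groups received doxycycline at 2 µg/ml for 72 h. RNA was taken from cell lysates. Sequencing of mRNA gave 2 libraries for each shRNA, and the 2 lanes in which a library was run were averaged here. The labels do not say whether the libraries came from separate cultures, so the p-values measure only the spread between these libraries, which may be technical. In bulk RNA, fewer cells that express a gene and less of its RNA per cell cannot be told apart.

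Each library held 79172294 to 133074655 reads on genes. The chi-square per gene was 1.24 to 1.31 between the lanes of a library and 26.5 to 80.1 between the libraries of an shRNA, where sampling noise alone gives about 1. All 10 markers of prostate epithelial cells had a row in the table, with HOXB13, a prostate transcription factor, between 7.79 and 8.39 on the log2 RPKM scale and the prostate-specific antigen gene KLK3 lowest, between -2.17 and -0.48. Of 10 markers of blood, stromal and endothelial cells, only COL1A1, DCN and ACTA2 had a row. Their summed RPKM was 2.62 to 2.70 with shNT, 2.84 to 3.05 with shCENPA1 and 2.28 to 2.82 with shCENPA2. DCN rose with both shRNAs, from a log2 RPKM of -2.90 and -3.19 in shNT to between -1.60 and -1.05 in the knockdown libraries.

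The level of a gene is given as log2 RPKM. This is the logarithm of its reads, scaled to the length of the gene and to the size of the library. The gene lengths used are not given in the sources used here, so levels can be compared between genes only roughly. CENPA, the targeted gene, stood at 2.46 and 2.18 in the controls, at 0.50 and 0.58 after shCENPA1 and at -0.47 and -0.41 after shCENPA2. Its log2 level fell by 1.78 with shCENPA1 (SE 0.16, adjusted p = 0.000287) and by 2.76 with shCENPA2 (SE 0.16, adjusted p = 1.13e-05). All adjusted p-values are from limma, corrected by Benjamini-Hochberg over the 14624 genes tested, and a gene is said to have fallen where its adjusted p was under 0.05. Each comparison with shNT rests on the same 2 control libraries, so an error in the controls enters both.

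All 41 genes passed the filter on low values, and they rested on 97 to 20331 reads per library. With shCENPA1, 23 of them fell (56.1%), beside 4.45% of all genes tested. With shCENPA2, 31 fell (75.6%), beside 10.5% of all genes. The same 23 genes that fell with shCENPA1 also fell with shCENPA2, where 4.13% of all genes fell with both. Both counts of 23 were 15 without shNT library 2 and 14 without shCENPA1 library 2. Another 8 passed the test with shCENPA2 only, and 10 passed with neither. A different response of the 8 genes to the shRNAs is not shown by this, since no member passed the test between shCENPA2 and shCENPA1.

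No member rose with either shRNA, where 2.69% of all genes rose with shCENPA1 and 8.05% with shCENPA2. The count of members that rose was also 0 at an unadjusted p under 0.05 and when the recovered reads were fitted with voom. With a log2 fold change beyond 1 as a further condition, 13 members were lower with shCENPA1 (1.83% of all genes), 20 with shCENPA2 (4.45%) and 13 with both (1.7%). In 33 members (80.5%), each of the 4 knockdown libraries lay below both shNT libraries, which was so for 20.5% of all genes. No member had all 4 knockdown libraries above both shNT libraries, as 20.3% of all genes did.

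The median log2 fold change of the 41 genes was -0.71 with shCENPA1 and -0.96 with shCENPA2, against 0.00 and 0.01 over all genes tested. The RPKM of all members summed to 378.6 and 393.0 in the controls, to 242.5 and 248.1 after shCENPA1 and to 219.7 and 220.0 after shCENPA2. These sums do not overlap between shNT and the knockdown libraries. UBE2T is the largest single part of them, at a mean RPKM of 107.7 with shNT, 57.3 with shCENPA1 and 49.5 with shCENPA2.

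**Figure D1:**
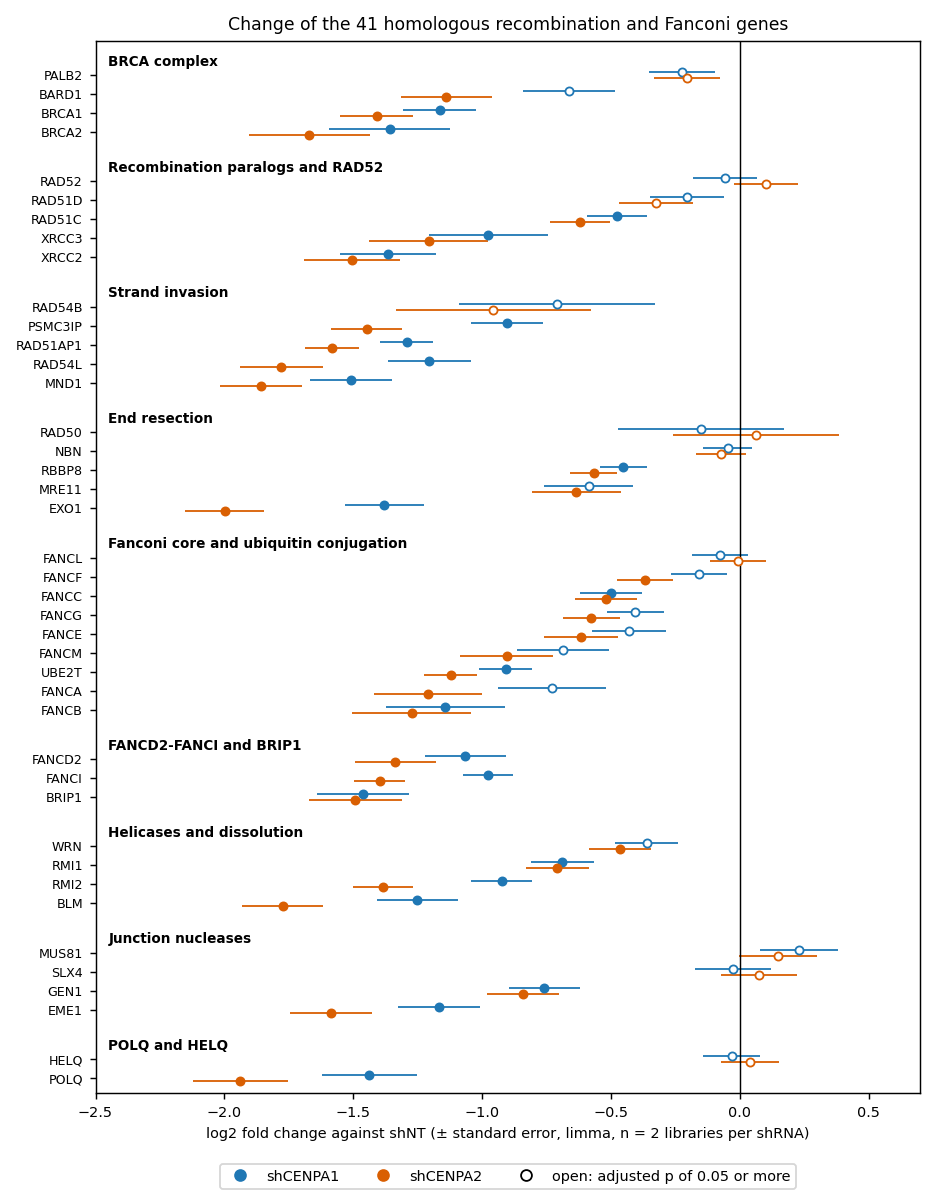
Log2 fold change of each of the 41 genes against shNT, ordered within 9 roles, with shCENPA1 in blue and shCENPA2 in orange. Bars are standard errors from limma (n = 2 libraries per shRNA) and open points did not pass the test; the filled points all lie left of 0, nearest for FANCF (-0.37) and farthest for EXO1, both with shCENPA2.

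Promoter sequence was at hand for 36 of the 41 genes, as RefSeq windows of GRCh38.p14 from 250 bases before to 50 bases after a transcription start. The sequence TTTCCCGC or TTTGGCGC, a form of the site bound by E2F factors, occurred on either strand in 5 of the 36 genes (13.9%). It occurred in 4.57% of the 10148 tested genes with a window and in 2.75% of all 27305 genes with a window. All 5 (XRCC2, MND1, PSMC3IP, FANCC and FANCD2) were among the 21 genes with a window that fell with both shRNAs (23.8%), while 0 of 7 that passed with shCENPA2 only and 0 of 8 that passed with neither held it. Over all genes that fell with both, 57 of 456 held it (12.5%). These shares describe short letter matches, which are not shown to be bound.

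A stretch from 100 bases before to 30 bases after a start is printed for 4 of these genes, 5′ to 3′ on the strand of the gene, with the match in capitals. They are shown because their genes fell with both shRNAs and the match lies within the printed stretch. PSMC3IP also carries the match and fell with both, but its match, at 32 to 39, lies outside that stretch. The stretches lie at chr3:10026337-10026466 on the plus strand (FANCD2), chr4:153344588-153344717 on the plus strand (MND1), chr7:152676112-152676241 on the minus strand (XRCC2) and chr9:95317680-95317809 on the minus strand (FANCC) of GRCh38.p14.
FANCD2: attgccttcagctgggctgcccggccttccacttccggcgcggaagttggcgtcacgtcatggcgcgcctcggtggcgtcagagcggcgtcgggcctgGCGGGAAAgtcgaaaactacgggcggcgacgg
MND1: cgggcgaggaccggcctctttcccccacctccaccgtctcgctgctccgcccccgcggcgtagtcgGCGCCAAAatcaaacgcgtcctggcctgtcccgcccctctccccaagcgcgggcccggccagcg
XRCC2: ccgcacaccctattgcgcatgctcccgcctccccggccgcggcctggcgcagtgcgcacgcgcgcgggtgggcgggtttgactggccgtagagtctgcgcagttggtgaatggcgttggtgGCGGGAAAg
FANCC: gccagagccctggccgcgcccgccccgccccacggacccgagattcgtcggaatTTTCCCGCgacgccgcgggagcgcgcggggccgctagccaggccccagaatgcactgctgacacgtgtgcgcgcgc
In FANCD2 the match runs across the start, from base -2 to base 6. In MND1 it lies at -34 to -27 from the start used here, and at 6 to 13 from another annotated start of the gene. In FANCC it lies at -46 to -39, while in XRCC2 it lies downstream of the start at 22 to 29. MND1, XRCC2 and FANCD2 hold it in the reverse orientation.

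Other short motifs were also searched. TTTGAA, a form of the cell cycle homology region, occurred in FANCC, UBE2T, BRIP1, POLQ and HELQ (13.9% of 36 genes). The share was 13.3% of the tested genes with a window and 18.2% of all genes with a window. CCAAT, which NF-Y binds, occurred in 17 of 36 (47.2%), against 43.3% of the tested genes and 39.7% of all genes with a window. UBE2T, BRIP1 and HELQ held both of these; the first pair fell with both shRNAs and HELQ passed with neither. Of the members that fell with both shRNAs, 4 of 21 (19%) held TTTGAA and 10 of 21 (47.6%) held CCAAT, beside 133 of 456 (29.2%) and 263 of 456 (57.7%) of all tested genes that fell with both and have a window.

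The BRCA complex prepares the resected end for strand exchange, and its median log2 fold change over 4 genes was -0.91 with shCENPA1 and -1.27 with shCENPA2. BRCA1, a ubiquitin ligase that acts at the choice between repair pathways, spans bases 43044295 to 43170245 of chromosome 17 (GRCh38). It was measured at a log2 RPKM of 2.90 and 3.12 with shNT, 2.00 and 1.70 with shCENPA1, and 1.57 and 1.63 with shCENPA2. Every knockdown library was more than a log2 unit below the higher shNT library. The groups did not overlap, though the CENPA-targeted shRNAs did not differ by the test (adjusted p = 0.508). BRCA1 fell by 1.16 (SE 0.14, adjusted p = 0.00118) with shCENPA1 and by 1.41 (SE 0.14, adjusted p = 0.000169) with shCENPA2.

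BRCA2, a mediator of strand exchange, spans bases 32315086 to 32400268 of chromosome 13. Its level (log2 RPKM) was 0.48 and 0.70 with shNT, -0.51 and -1.04 with shCENPA1, and -0.996 and -1.17 with shCENPA2. All knockdown libraries lay below both shNT libraries, while the 2 CENPA-targeted shRNAs overlapped. The 2 shCENPA1 libraries stood apart from each other more than the pair of either other shRNA. BRCA2 fell by 1.36 (SE 0.23, adjusted p = 0.00803) with shCENPA1 and by 1.67 (adjusted p = 0.00122) with shCENPA2. Without shNT library 2 or shCENPA1 library 2, the change with shCENPA1 did not pass the test (adjusted p = 0.0687 to 0.0818). BARD1, the partner of BRCA1, fell with shCENPA2 (-1.14, adjusted p = 0.00212), and its value with shCENPA1 was -0.66 (adjusted p = 0.0578). PALB2, which joins BRCA1 to BRCA2, passed with neither (-0.23 and -0.21), although its 4 knockdown libraries all lay below both shNT libraries.

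The recombination paralogs RAD51C, RAD51D, XRCC2 and XRCC3 help filaments to form on single-stranded DNA, and 3 of the 5 genes of this group, which includes RAD52, fell with both shRNAs. The log2 RPKM of XRCC2 (chromosome 7, 152644776 to 152676193) was 2.23 and 2.30 with shNT, 1.07 and 0.72 with shCENPA1, and 0.53 and 0.98 with shCENPA2. Both knockdowns were clear of shNT, while the 2 CENPA-targeted shRNAs overlapped. XRCC2 fell by 1.37 (SE 0.19, adjusted p = 0.00223) and by 1.50 (adjusted p = 0.000585).

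XRCC3 fell by 0.98 with shCENPA1 (adjusted p = 0.0339) and by 1.21 with shCENPA2 (adjusted p = 0.00602). In GENCODE 44, 76.7% of its exon bases are shared with KLC1, so reads from these bases could be counted for either gene or for none. The library kit keeps the strand of the RNA, but whether the counting used it is not given in the sources used here. Leaving out any 1 of the shNT or shCENPA1 libraries took its call with shCENPA1 away (adjusted p = 0.123 to 0.197). RAD51C fell by 0.48 (adjusted p = 0.0393) and by 0.62 (adjusted p = 0.00563), and its call with shCENPA1 was also lost without any 1 of these libraries (adjusted p = 0.0727 to 0.401), and that with shCENPA2 was lost without shNT library 2 (adjusted p = 0.0705). RAD51D passed with neither (-0.21 and -0.33), and RAD52, a mediator of strand annealing, had values of -0.06 and 0.10.

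The genes of strand invasion had the lowest median of the roles, -1.21 with shCENPA1 and -1.58 with shCENPA2, and 4 of 5 fell with both. MND1, which with PSMC3IP forms a heterodimer that stimulates strand exchange, was the member with the largest smaller change of the 2 shRNAs. The level of MND1 was 3.29 and 3.36 with shNT, 1.59 and 2.04 with shCENPA1, and 1.37 and 1.56 with shCENPA2. The shNT libraries lay above every knockdown library by more than a log2 unit. MND1 (chromosome 4, 153344649 to 153415118) fell by 1.51 (SE 0.16, adjusted p = 0.000574) and by 1.86 (adjusted p = 6.64e-05), although 55.5% of its exon bases are shared with another annotated gene. PSMC3IP fell by 0.90 (adjusted p = 0.00417) and by 1.45 (adjusted p = 0.000129), with 30.3% of its exon bases shared.

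RAD51AP1, which enhances joint molecule formation, was the most strongly expressed gene of this role. It stood at a log2 RPKM of 4.02 and 4.14 with shNT, 2.71 and 2.87 with shCENPA1, and 2.50 and 2.50 with shCENPA2. The 3 groups were separate and the libraries of each lay close together. Between the CENPA-targeted shRNAs the difference did not pass the test (adjusted p = 0.262). RAD51AP1 (chromosome 12, 4538798 to 4560047) fell by 1.29 (SE 0.10, adjusted p = 0.000179) and by 1.58 (adjusted p = 1.76e-05).

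RAD54L encodes a motor protein that drives strand exchange along chromatin. Its log2 RPKM was 1.37 and 1.46 with shNT, 0.17 and 0.25 with shCENPA1, and -0.40 and -0.33 with shCENPA2. The shCENPA2 libraries lay lowest, but the difference between the CENPA-targeted shRNAs did not pass the test (adjusted p = 0.149). RAD54L (chromosome 1, 46246461 to 46278480) fell by 1.21 (SE 0.16, adjusted p = 0.002) and by 1.78 (adjusted p = 9.75e-05), and shares 19.9% of its exon bases with LRRC41. Its relative RAD54B, which rests on 123 to 285 reads per library and shares 66% of its exon bases with FSBP, passed with neither. Its estimates were -0.71 and -0.96, and the shCENPA1 libraries differed widely, at -0.97 and -2.17.

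**Figure D2:**
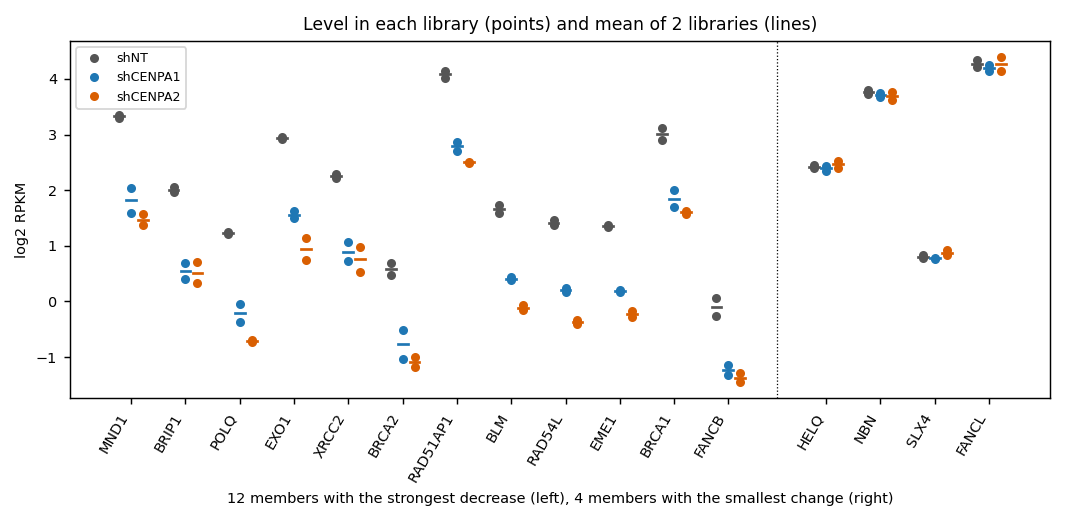
Log2 RPKM of 16 members in each of the 6 libraries (points) with the mean of the 2 libraries of an shRNA (lines). The 12 members on the left fell with both shRNAs and were picked for the largest smaller decrease. The 4 on the right passed with neither and were picked for the smallest change. On the left all 4 knockdown libraries lie below both shNT libraries, and on the right the groups overlap. This contrast largely follows from the choice, which was made on these same values.

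Of the 5 genes of end resection, 2 fell with both shRNAs. EXO1, the exonuclease that extends the resected end, had a log2 RPKM of 2.95 and 2.93 with shNT, 1.50 and 1.62 with shCENPA1, and 1.14 and 0.74 with shCENPA2. The groups were separate, and the shCENPA2 libraries differed most from each other. Between the CENPA-targeted shRNAs the test was not passed (adjusted p = 0.104). EXO1 (chromosome 1, 241847967 to 241895148) fell by 1.38 (SE 0.15, adjusted p = 0.00079) and by 2.00 (SE 0.15, adjusted p = 4e-05), the strongest decrease of any member with shCENPA2. RBBP8, which encodes the resection factor CtIP, fell by 0.45 (adjusted p = 0.0162) and by 0.57 (adjusted p = 0.00229), and the call with shCENPA1 was lost without any 1 of the shNT or shCENPA1 libraries (adjusted p = 0.0584 to 0.21).

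The MRE11-RAD50-NBN complex senses the break and starts resection. MRE11 passed with shCENPA2 only (-0.63, adjusted p = 0.0317), with -0.59 and an adjusted p of 0.0786 for shCENPA1. The call was lost without any 1 of the shNT or shCENPA2 libraries (adjusted p = 0.0618 to 0.297). NBN was flat, with a log2 RPKM of 3.73 and 3.80 with shNT, 3.75 and 3.68 with shCENPA1, and 3.62 and 3.77 with shCENPA2. Its groups overlapped, and its log2 fold change was -0.05 with shCENPA1 (95% confidence interval -0.27 to 0.17) and -0.07 with shCENPA2 (-0.29 to 0.15). RAD50 had estimates of -0.15 and 0.06, and the lowest level of all members in shNT (-1.13), with 76.9% of its exon bases shared with other genes, among them TH2LCRR.

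Of the 9 genes of the Fanconi core and its ubiquitin-conjugating enzyme, 3 fell with shCENPA1 and 8 with shCENPA2. Their median was -0.50 and -0.62. UBE2T, the enzyme that conjugates ubiquitin to FANCD2 and FANCI, was the most strongly expressed of the 41 genes, with a mean log2 RPKM of 6.75 in shNT. It fell by 0.91 (adjusted p = 0.000861) and by 1.12 (adjusted p = 0.000108). FANCC fell by 0.50 (adjusted p = 0.0384) and by 0.52 (adjusted p = 0.0165), and its call with shCENPA1 was lost without any 1 of the shNT or shCENPA1 libraries (adjusted p = 0.0623 to 0.289). Its call with shCENPA2 was lost without either shNT library (adjusted p = 0.122 to 0.148).

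FANCB, a core subunit encoded on chromosome X from 14690388 to 14873255, was weakly expressed. Its log2 RPKM was -0.26 and 0.07 with shNT, -1.15 and -1.33 with shCENPA1, and -1.45 and -1.29 with shCENPA2, on 97 to 291 reads. Both shNT libraries lay above the others. FANCB fell by 1.14 (SE 0.23, adjusted p = 0.0174) and by 1.27 (adjusted p = 0.00471). Its call with shCENPA1 was lost when any 1 of the shNT or shCENPA1 libraries was left out (adjusted p = 0.0564 to 0.242), and that with shCENPA2 was lost without shNT library 2 (adjusted p = 0.0689).

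FANCA, FANCE, FANCF, FANCG and FANCM passed with shCENPA2 only. FANCA had the largest estimates of these, -0.73 (adjusted p = 0.0726) with shCENPA1 and -1.21 (adjusted p = 0.00372) with shCENPA2, and shares 19.6% of its exon bases with ZNF276. FANCM, the translocase that anchors the core complex, had -0.69 (adjusted p = 0.0521) and -0.91 (adjusted p = 0.00742). FANCE had -0.43 and -0.62, FANCG -0.41 and -0.58, and FANCF -0.16 and -0.37 (adjusted p = 0.0164, 0.00643 and 0.0439 with shCENPA2). Leaving out 1 library took the call with shCENPA2 away for FANCE in 3 cases (each shNT library and shCENPA2 library 2), for FANCF in 5 (every library but shCENPA2 library 2), for FANCG in 1 (shNT library 1) and for FANCM in 1 (shNT library 2).

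FANCL, the ubiquitin ligase of the core complex, did not follow these genes. Its log2 RPKM was 4.21 and 4.34 with shNT, 4.14 and 4.26 with shCENPA1, and 4.14 and 4.39 with shCENPA2. The groups overlapped. Its log2 fold change was -0.08 with shCENPA1 (95% confidence interval -0.32 to 0.17) and -0.007 with shCENPA2 (-0.25 to 0.24). The intervals of UBE2T, which works with it, were -1.14 to -0.68 and -1.36 to -0.89. FANCL is shown in each library because its change was small, and the difference between the genes was not tested.

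All 3 genes of the step that follows fell with both shRNAs. FANCD2 fell by 1.07 (adjusted p = 0.00365) and by 1.34 (adjusted p = 0.000461), and FANCI, its partner in the clamp on DNA, by 0.98 (adjusted p = 0.00048) and by 1.40 (adjusted p = 2.6e-05). The call of FANCD2 with shCENPA1 was lost without shCENPA1 library 2 (adjusted p = 0.0595). BRIP1, the helicase that binds BRCA1, had a log2 RPKM of 1.97 and 2.05 with shNT, 0.70 and 0.40 with shCENPA1, and 0.33 and 0.71 with shCENPA2. Both knockdowns were far below shNT and overlapped each other. BRIP1 (chromosome 17, 61679139 to 61863559) fell by 1.46 (SE 0.18, adjusted p = 0.00126) and by 1.49 (adjusted p = 0.000495).

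BLM, RMI1 and RMI2 belong to the complex that dissolves double Holliday junctions without crossing over, and all fell with both shRNAs. The log2 RPKM of BLM (chromosome 15, 90717346 to 90816166) was 1.59 and 1.74 with shNT, 0.44 and 0.38 with shCENPA1, and -0.07 and -0.16 with shCENPA2. The groups were separate, though the CENPA-targeted shRNAs did not differ by the test (adjusted p = 0.172). BLM fell by 1.25 (SE 0.16, adjusted p = 0.0014) and by 1.77 (adjusted p = 7.97e-05). RMI2 fell by 0.92 (adjusted p = 0.00157) and by 1.38 (adjusted p = 6.66e-05). RMI1 fell by 0.69 (adjusted p = 0.00882) and by 0.71 (adjusted p = 0.00353), with the call for shCENPA1 lost without shNT library 2 or shCENPA1 library 2 (adjusted p = 0.0849 to 0.101).

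WRN, the related Werner helicase, was expressed at 5.14 in shNT and passed with shCENPA2 only (-0.36 and -0.47, adjusted p = 0.114 and 0.0261). Its call was lost without shNT library 2 or either shCENPA2 library (adjusted p = 0.0727 to 0.185).

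Of the 4 genes for nucleases that cut joint molecules or their scaffold, 2 fell with both shRNAs. EME1, the regulatory partner of MUS81, had a log2 RPKM of 1.34 and 1.38 with shNT, 0.21 and 0.17 with shCENPA1, and -0.17 and -0.28 with shCENPA2. The groups were separate, but shCENPA2 against shCENPA1 did not pass the test (adjusted p = 0.3). EME1 (chromosome 17, 50373220 to 50381483) fell by 1.17 (SE 0.16, adjusted p = 0.00222) and by 1.59 (adjusted p = 0.000171), and shares 16.4% of its exon bases with LRRC59. MUS81, the catalytic subunit of the same enzyme, had estimates of 0.23 (adjusted p = 0.42) and 0.15 (adjusted p = 0.547). Its 95% confidence intervals were -0.11 to 0.57 and -0.19 to 0.49, and those of EME1 were -1.53 to -0.81 and -1.95 to -1.23. EME1 is shown in each library because of the size of its decrease, and the difference between the genes was not tested.

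GEN1, a resolvase that cuts Holliday junctions, fell by 0.76 (adjusted p = 0.0106) and by 0.84 (adjusted p = 0.00285). Its call with shCENPA1 was lost without either shNT library or shCENPA1 library 2 (adjusted p = 0.0721 to 0.124). SLX4, the scaffold that binds several of these nucleases, had a log2 RPKM of 0.78 and 0.83 with shNT, 0.79 and 0.77 with shCENPA1, and 0.83 and 0.93 with shCENPA2. The groups overlapped, and its log2 fold change was -0.03 with shCENPA1 (95% confidence interval -0.36 to 0.30) and 0.07 with shCENPA2 (-0.26 to 0.41).

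POLQ and HELQ both encode helicase domains of the same family, and POLQ adds a DNA polymerase that joins ends by short matches. The log2 RPKM of POLQ (chromosome 3, 121431431 to 121545988) was 1.21 and 1.25 with shNT, -0.05 and -0.36 with shCENPA1, and -0.68 and -0.73 with shCENPA2. The groups were separate, though the CENPA-targeted shRNAs did not differ by the test (adjusted p = 0.282). POLQ fell by 1.44 (SE 0.18, adjusted p = 0.00161) and by 1.94 (adjusted p = 0.000126). HELQ stood at 2.45 and 2.40 with shNT, 2.35 and 2.44 with shCENPA1, and 2.40 and 2.53 with shCENPA2. Its groups overlapped. The log2 fold change of HELQ was -0.03 with shCENPA1 (95% confidence interval -0.28 to 0.22) and 0.04 with shCENPA2 (-0.21 to 0.29). The intervals of POLQ were -1.85 to -1.02 and -2.35 to -1.52. Both genes are shown in each library because of the size of these changes, and the difference between them was not tested.

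**Figure D3:**
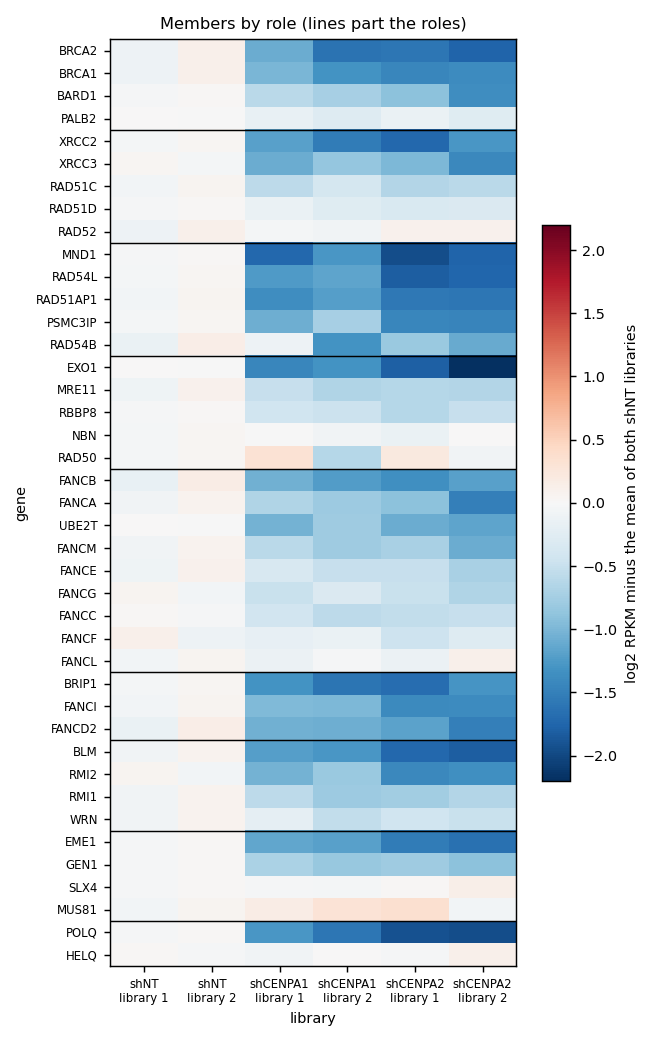
Log2 RPKM of each of the 41 genes minus the mean of both shNT libraries, in each of the 6 libraries, with lines between the 9 roles. Blue cells are below the shNT mean and red cells above it; the 4 knockdown columns are blue for most genes, and FANCL, NBN, SLX4, MUS81, RAD52 and HELQ stay pale.

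The 23 genes that fell with both shRNAs had a median level of 2.50 in shNT (log2 RPKM), against 1.82 for the 8 that passed with shCENPA2 only, 1.93 for the 10 that passed with neither and 2.36 over all genes tested. The levels overlapped widely, from -0.09 to 6.75 in the first group and from -1.13 to 4.27 in the last. NBN and FANCL, at 3.76 and 4.27, were among the flat members, while FANCB, at -0.09, fell.

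Between the 2 CENPA-targeted shRNAs no member passed the test, where 1.42% of all genes did. Of the 41, 11 (26.8%) had an unadjusted p under 0.05, as did 13.3% of all genes tested, none passed with voom, and the smallest adjusted p was 0.0864 for FANCI. The estimate was lower with shCENPA2 than with shCENPA1 in 35 of 41 members, and in 50.6% of all genes tested. It was also lower in 33 of 34 replication genes, 22 of 22 mitotic genes and 18 of 34 other repair genes, lists described below. The median difference was -0.18 in the members, -0.30 in the replication genes and -0.34 in the mitotic genes. Among the members the differences ran from -0.62 for EXO1 to 0.21 for RAD50. CENPA itself was lower with shCENPA2 than with shCENPA1 by 0.98 on the log2 scale (adjusted p = 0.0209).

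Of 56 other genes of these pathways, 46 were tested. They include the subunits of RPA, the remaining FANC-associated proteins and further helicases. With shCENPA1, 14 fell and none rose, and with shCENPA2, 20 fell and 1 rose. Over all genes tested, 4.45% fell and 2.69% rose with shCENPA1, and 10.5% fell and 8.05% rose with shCENPA2. Of the 46, the gene that rose was ERCC1, a subunit of the nuclease that incises crosslinks (0.47, adjusted p = 0.0206). Its value with shCENPA1 was 0.38 (adjusted p = 0.0892). The median of the 46 was -0.32 with shCENPA1 and -0.33 with shCENPA2. All 14 that fell with shCENPA1 also fell with shCENPA2. The 14 became 8 without shNT library 1, 4 without shNT library 2, 9 without shCENPA1 library 1 and 5 without shCENPA1 library 2.

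PARPBP, which restrains recombination, had log2 fold changes for shCENPA1 and shCENPA2, in that order, of -0.99 (adjusted p = 0.0023) and -1.37 (adjusted p = 0.000155). The values of ZGRF1, a helicase, were -1.28 (adjusted p = 0.0106) and -1.68 (adjusted p = 0.00112). Those of DNA2, a nuclease of long-range resection, were -0.97 (adjusted p = 0.00488) and -1.12 (adjusted p = 0.00104). Those of MMS22L, which aids recombination at stalled forks, were -0.97 (adjusted p = 0.00647) and -1.03 (adjusted p = 0.00215). Each of ZGRF1, DNA2 and MMS22L lost its call with shCENPA1 without shNT library 2 or shCENPA1 library 2, and ZGRF1 also without shCENPA1 library 1. None of the 46 rose with both shRNAs, as 347 of all 14624 genes tested did.

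Genes of DNA replication and of mitosis moved in the same libraries. Of 34 replication genes, 31 fell with shCENPA1 and 34 with shCENPA2, with medians of -0.98 and -1.23. All 22 mitotic genes fell with both shRNAs, with medians of -1.28 and -1.61. Of 34 other DNA repair genes, 2 fell and none rose with shCENPA1, while 5 fell and 1 rose with shCENPA2. Their medians were -0.01 and -0.02. Among all genes tested, 4.45% fell and 2.69% rose with shCENPA1, and 10.5% fell and 8.05% rose with shCENPA2. The part of replication and mitosis in the decrease of the recombination and Fanconi genes was not tested.

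By library, the median of the 41 genes minus the shNT mean was -0.04 and 0.04 with shNT, -0.60 and -0.78 with shCENPA1, and -0.81 and -1.10 with shCENPA2. The 4 knockdown libraries lay below both shNT libraries, and the libraries of different shRNAs came close but did not overlap. The other repair genes stayed between -0.09 and 0.02 in all 6 libraries.

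**Figure D4:**
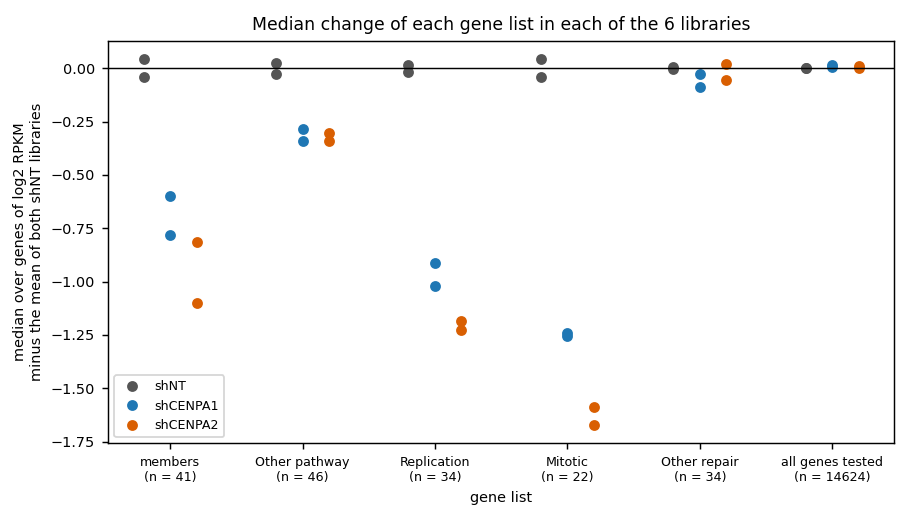
Median over the genes of a list of log2 RPKM minus the mean of both shNT libraries, 1 point per library, for the 41 members, 4 other lists and all genes tested. The members (-1.10 to -0.60 in the knockdown libraries) lie between the other pathway genes and the mitotic genes, while other repair genes and all genes stay near 0.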

How the data were processed

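The authors trimmed reads with Trim Galore, aligned them with STAR to hg38 and counted them with HTSeq, with tool versions and the strand setting of the counting not given in the sources used here. They deposited log2 RPKM for 14828 genes in 12 runs, a log2 scale on which a prior of 0.25 reads had been added, which pulls the fold changes of genes with few reads towards 0. Reads were recovered from the steps between deposited values for 14828 of 14828 genes (within 3.6e-08 of a whole read), which gave the depth, 79172294 to 133074655 reads on genes per library.

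Lanes 7 and 8 of a library were averaged, which leaves 6 libraries. The 14624 genes whose log2 RPKM averaged -3 or more entered 1 limma fit (version 3.58.1, R 4.3.3, eBayes with trend) of all groups, without covariates. P-values were adjusted by Benjamini-Hochberg over these genes, and a gene passed at an adjusted p under 0.05. With 2 libraries against 2, the smallest two-sided p of an exact permutation test is 0.333, and the calls depend on a spread estimated over many genes together. The fit and the recovery of reads were tested on simulated data.

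Members and lists were chosen with earlier results of these data known. Every member is named with both changes. Values in each library are given for the 12 members with the largest smaller change of both shRNAs among those past the test with both, the 4 members past neither whose larger change was smallest, and CENPA. Of the other pathway genes, the 5 with the largest smaller decrease among those past the test with both were chosen, of which 1 is not reported here, with ERCC1, the only 1 to rise, which was chosen after its values were seen. Percentages of exon bases shared with other genes and gene positions are from GENCODE 44 on GRCh38, and promoter windows are from RefSeq. The alternatives were other constants added to RPKM (0.1 and 1), other filters, single lanes, runs as replicates, a replicate block, centring on the library median, quantile normalization, no trend in the variance, fits without the third group, voom on the recovered reads, a fold threshold and each library left out in turn.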

Additional observations from a re-analysis of the deposited data

Results flagged for a closer look

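The level of CENPA differed between the 2 CENPA-targeted shRNAs by a test of that difference. It was lower with shCENPA2 than with shCENPA1 by a log2 value of -0.98 (SE 0.16, adjusted p = 0.0209 from limma), and both shCENPA2 libraries (-0.47 and -0.41 log2 RPKM) lay below both shCENPA1 libraries (0.50 and 0.58). The difference did not pass the test with 1 added to RPKM, with voom, or without shCENPA1 library 1, shCENPA1 library 2 or shCENPA2 library 2 (adjusted p = 0.0571 to 0.212 without these libraries). The values rest on 118 to 308 reads per knockdown library.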

How the results depend on the processing

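Of the 23 members that fell with both shRNAs, 14 passed with both in every alternative without a fold threshold, namely BRCA1, XRCC2, RAD51AP1, RAD54L, MND1, PSMC3IP, EXO1, UBE2T, FANCI, BRIP1, BLM, RMI2, EME1 and POLQ. With each library left out in turn, where the lone sample of a group is assumed to vary like the others, members that fell numbered 14 to 27 with shCENPA1, 23 to 30 with shCENPA2 and 14 to 27 with both, and those that differed between the CENPA-targeted shRNAs numbered 0 to 1. The lowest count with shCENPA1, and with both, was reached without shCENPA1 library 2 (14), followed by shNT library 2 (15). Other pathway genes that fell with shCENPA1 numbered 4 to 18, with 4 without shNT library 2, 5 without shCENPA1 library 2, 8 without shNT library 1 and 9 without shCENPA1 library 1.

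A log2 fold change beyond 1 left 13, 20 and 13 members with shCENPA1, shCENPA2 and both. With runs as replicates, 13 members differed between the CENPA-targeted shRNAs and 25 other pathway genes fell with shCENPA1, while limma without the trend left 9 other pathway genes lower with shCENPA1. Libraries with the same replicate number did not deviate together (correlations of library deviations of -0.06, -0.10 and -0.15). Whether they were prepared in pairs is not stated. With a replicate block, 20 members fell with shCENPA1, 29 with shCENPA2 and 20 with both, 0 rose with either and 0 differed between the CENPA-targeted shRNAs, while 12 and 19 other pathway genes fell. The calls lost with the block were those of RAD51C, XRCC3 and FANCC with shCENPA1 and of MRE11 and FANCF with shCENPA2. Under the other settings that keep every library, calls were also lost for FANCF with shCENPA2 (lane 7, both scalings, no trend, only the groups compared), RAD51C with shCENPA1 (lane 8, both scalings, no trend), XRCC3 with shCENPA1 (lane 8), MRE11 with shCENPA2 (lane 7) and, without the trend, FANCC and RBBP8 with shCENPA1 and WRN with shCENPA2. With a crossed replicate block for shCENPA2 against shCENPA1, chosen after seeing the data, 1 member differed, EXO1 (-0.62, adjusted p = 0.0422). Without shCENPA2 library 1, EXO1 was also the 1 member that differed (-0.82, adjusted p = 0.0284).

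Estimates near 0 changed sign. With libraries left out in turn, the ranges that cross 0 were, for shCENPA1, HELQ -0.0758 to 0.0115, RAD52 -0.177 to 0.0641 and RAD50 -0.629 to 0.324, and for shCENPA2, FANCL -0.133 to 0.119, RAD52 -0.0189 to 0.222, RAD50 -0.0809 to 0.206, NBN -0.149 to 0.0045, MUS81 -0.0663 to 0.36 and HELQ -0.0295 to 0.107. Between the CENPA-targeted shRNAs they were BRIP1 -0.218 to 0.157 and XRCC2 -0.365 to 0.086. Other sign changes were HELQ with shCENPA1 in lane 7 (0.00592), SLX4 with shCENPA1 after quantile normalization (0.0399), FANCL with shCENPA2 after median centring (0.0154) and with voom (0.00133), and BRIP1 between the CENPA-targeted shRNAs in lane 8 (0.0535) and with voom (0.00708). None of these passed the test in either form, and the cause was not tested. No scaling moved the median of all genes by as much as 0.1. The number of libraries limits the precision, and FANCB and RAD54B rest on few reads.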
